A study of Mus musculus with 10 samples.

Results

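Wnt6, Wnt10a and Ihh encode secreted ligands and lie near each other on mouse chromosome 1, and are described here with 5 genes of the same stretch, Rnf25, Stk36, Ttll4, Nhej1 and Cnppd1. The 8 genes were picked by name out of 16875 gene names in the table. They were chosen by their position and with their FPKM values in both genotypes already known, so that their difference between genotypes is a description here and carries no test. The question was whether a lower level in the deleted tumors was shared by the neighborhood or limited to the ligands. Genes of the same neighborhood that were not picked, taken from the annotation alone, were tested.

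RNA was sequenced from macrodissected colon tumors that arose in mice after azoxymethane (AOM), a carcinogen, and 3 cycles of 2% dextran sulfate sodium (DSS), which injures the colon lining. The 5 control tumors were Wls flox/flox and the 5 Villin-WlscKO tumors were Villin-Cre ERT2, Wls flox/flox, so that both groups carried the floxed Wls alleles, AOM and DSS. Wls is the carrier protein that Wnt ligands need to leave the cell. The study gives a C57Bl6 background for all animals. Mice entered the protocol at 6 to 10 weeks of age, and tumors were taken on day 120 from AOM. Villin-WlscKO mice were given tamoxifen 5 times (80 mg/kg), the first dose 30 days before the tumors were taken. The study's legend describes control tumors as free of tamoxifen unless stated otherwise, so that the deletion and the drug cannot be told apart. The villin promoter drives this Cre in the epithelium, and stromal cells of the tumor keep Wls. The sources used here do not tie tumors to mice, so n counts tumors, and the spread between them may include tumors of the same animal.

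Wnt ligands carry a lipid, bind Frizzled and LRP receptors on nearby cells and, in the canonical branch, stabilize β-catenin, which switches on targets with TCF and LEF factors. Indian hedgehog, the product of Ihh, is made in the colon mainly by differentiated epithelial cells, and it binds Patched on mesenchymal cells below them, which releases Smoothened and turns on Gli factors. Ptch1 and Hhip are themselves targets of that signal. Wnt6 and Wnt10a are a long-standing gene pair of vertebrate genomes, and introns of Nhej1 are known to hold enhancers that act on Ihh in the developing skeleton.

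In GENCODE M21 coordinates on GRCm38, the 8 genes span 548964 bases. Rnf25, which encodes a RING-type ubiquitin ligase, occupies chromosome 1 from 74593748 to 74601397 on the minus strand. Stk36, a serine/threonine kinase related to the Hedgehog component Fused, runs head to head with it on the plus strand from 74601445 to 74636894, with 47 bases between them. Ttll4, an enzyme that adds glutamate to tubulin, lies at 74661745 to 74703730 on the plus strand. Wnt6 follows at 74771892 to 74785322 and Wnt10a at 74791516 to 74804179, both on the plus strand and only 6193 bases apart. Ihh lies 141135 bases beyond Wnt10a, at 74945315 to 74951672 on the minus strand. Nhej1, a factor of DNA end joining, starts 15466 bases past Ihh and fills 74967139 to 75125200, also on the minus strand. Cnppd1, named for its cyclin-like domain, closes the row on the minus strand at 75134554 to 75142711.

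Promoter sequences from RefSeq (GRCm38.p6), from 250 bases before to 50 bases after the start, were matched for 7 of the 8 genes, all but Wnt10a. Those of Wnt6, Ihh and Cyp27a1 are shown because these genes were lower in Villin-WlscKO tumors, Cyp27a1 being the gene between Ttll4 and Wnt6 described below. The promoter of Stk36 is shown because its window also covers the start of Rnf25, so that it stands for 2 genes whose groups overlapped. Capitals mark CpG dinucleotides, and each run reads 5′ to 3′ on the strand of its gene. The windows are chr1:74771642-74771941 on the plus strand for Wnt6, chr1:74951623-74951922 on the minus strand for Ihh, chr1:74713285-74713584 on the plus strand for Cyp27a1 and chr1:74601205-74601504 on the plus strand for Stk36.
Wnt6: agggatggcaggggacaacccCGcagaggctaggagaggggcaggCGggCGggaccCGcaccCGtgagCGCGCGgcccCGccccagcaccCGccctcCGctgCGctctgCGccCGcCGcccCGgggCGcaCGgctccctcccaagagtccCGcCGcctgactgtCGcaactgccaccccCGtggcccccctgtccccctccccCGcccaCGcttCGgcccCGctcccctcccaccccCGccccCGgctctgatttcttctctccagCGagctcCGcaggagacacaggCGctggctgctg
Ihh: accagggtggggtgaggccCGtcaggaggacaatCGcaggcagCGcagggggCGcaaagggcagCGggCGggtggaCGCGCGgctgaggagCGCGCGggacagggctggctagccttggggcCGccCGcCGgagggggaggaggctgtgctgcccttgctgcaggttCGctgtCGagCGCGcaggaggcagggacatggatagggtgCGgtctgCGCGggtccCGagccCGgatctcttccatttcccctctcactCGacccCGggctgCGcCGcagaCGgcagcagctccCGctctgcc
Cyp27a1: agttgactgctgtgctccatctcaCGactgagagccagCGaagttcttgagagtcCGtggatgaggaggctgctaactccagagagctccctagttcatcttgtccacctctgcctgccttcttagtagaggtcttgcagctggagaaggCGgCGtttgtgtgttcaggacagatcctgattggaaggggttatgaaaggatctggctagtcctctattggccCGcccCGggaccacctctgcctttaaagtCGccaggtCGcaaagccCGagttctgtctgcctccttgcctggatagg
Stk36: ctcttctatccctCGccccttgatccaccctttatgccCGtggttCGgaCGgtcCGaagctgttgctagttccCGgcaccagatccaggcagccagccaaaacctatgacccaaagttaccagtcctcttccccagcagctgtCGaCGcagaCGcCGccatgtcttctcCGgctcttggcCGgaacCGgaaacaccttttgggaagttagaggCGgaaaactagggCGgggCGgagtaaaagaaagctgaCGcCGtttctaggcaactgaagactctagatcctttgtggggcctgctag

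CpG counts overlapped between the genes that were lower and those with overlapping groups, with the promoter of Wnt10a missing. Wnt6 held 31 CpG, Ihh 30, Cnppd1 31, Stk36 18, Rnf25 16, Ttll4 16, and Nhej1 and Cyp27a1 10 each, against a median of 7 over 32851 promoters of this length. All were thus above the median, and both the genes with a lower level in Villin-WlscKO tumors and those with overlapping groups included counts of 10 and of 30 or more. Among the lower genes, the count of 10 was that of Cyp27a1 alone, and a relation to expression was not tested. On either strand, the letters CTTTGAT, a core of TCF/LEF sites, occurred in 0 of the 7 member promoters and in 3.73% of all promoters. The letters TGANTCA, a core of AP-1 sites, occurred in 0 of the 7 and in 7.81% of all promoters.

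Wls itself, the deleted gene, was at 61.3 to 79.9 FPKM in control tumors and at 2.03 to 11.7 FPKM in Villin-WlscKO tumors (limma log2 change -3.59, standard error 0.39, Benjamini-Hochberg adjusted p = 0.000337). FPKM, fragments scaled by transcript length and by the mapped reads of the library, is a length-corrected unit, so that levels can be set side by side between genes. Tumors summed to between 1207683 and 1533885 FPKM with medians of 11.3 to 12.2, read numbers could not be recovered, and depth is unknown. Xist was at 0.037 to 0.420 FPKM in control and at 439 to 701 FPKM in Villin-WlscKO tumors, while the Y-linked Eif2s3y was at 30.4 to 46.6 and at 0 to 0.138 FPKM, so that genotype and sex cannot be told apart. Villin-WlscKO tumors 2 and 3 stood apart by squamous markers (Krt5, Krt14, Trp63, Krt6a and Dsg3), which summed to 963 and 1241 FPKM there and to 10.6 to 180 FPKM in the other 8 tumors. These 2 tumors also had the most remaining Wls, at 11.6 and 11.7 FPKM, against 2.81, 3.61 and 2.03 FPKM in Villin-WlscKO tumors 1, 4 and 5. Leaving them out thus changes both. All 7 epithelial markers were above 0 and summed to 5974 to 8414 FPKM in control and 7208 to 9219 FPKM in Villin-WlscKO tumors. Summed fibroblast, smooth muscle, leukocyte and endothelial markers also overlapped between the genotypes. Of the 6 leukocyte markers, whose median change was 0.55, the T cell gene Cd3e was called higher, at 0.291 to 0.517 FPKM in control and 0.802 to 1.67 FPKM in Villin-WlscKO tumors (log2 change 0.61, adjusted p = 0.0138), and its part in the results below was not tested.

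All 3 ligand genes were lower in Villin-WlscKO tumors without overlap, while the groups of the other 5 genes overlapped. For comparison, 4.75% of 16757 genes tested were called lower by limma on log2(FPKM + 1) at an adjusted p under 0.05, 6.12% were called higher, and in 4.76% all 5 Villin-WlscKO values lay below all 5 control values. Because the genes were chosen with this contrast known, nothing is read from the 3 of 8 beyond the values themselves. In whole tumors, fewer cells of a type and less RNA per cell cannot be told apart.

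Wnt6 was measured at 57.2, 63.5, 58.4, 83.5 and 73.6 FPKM in control tumors 1 to 5. In Villin-WlscKO tumors 1 to 5 it was at 34.4, 21.6, 20.2, 17.5 and 32.5 FPKM. Tumors 1 and 5 were the highest of the deleted group, and the groups did not overlap. The mean was 67.2 ± 11.2 FPKM in controls and 25.3 ± 7.66 FPKM in deleted tumors (SD, n = 5 each), or 37.6% of the control mean, and the log2 difference was -1.41 (standard error 0.19).

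Wnt10a was at 37.3, 55.0, 45.3, 55.6 and 58.4 FPKM in the control tumors. In the Villin-WlscKO tumors it was at 14.2, 15.2, 15.5, 6.70 and 14.7 FPKM. Deleted tumors 1, 2, 3 and 5 lay close together and tumor 4 was alone below them. Its mean of 50.3 ± 8.80 FPKM in controls compared with 13.2 ± 3.69 FPKM in deleted tumors (SD, n = 5 each), which left 26.3% of the control mean. On the log2 scale it was lower, at a difference of -1.88 (standard error 0.22).

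Ihh was at 115, 66.5, 45.6, 44.3 and 44.7 FPKM in the control tumors and at 19.6, 11.9, 25.4, 17.1 and 30.6 FPKM in the deleted tumors. Control tumor 1 was far above the others, while controls 3, 4 and 5 were nearly equal, and even these exceeded every deleted tumor. Control tumors averaged 63.2 ± 30.5 FPKM and deleted tumors 20.9 ± 7.29 FPKM (SD, n = 5 each), 33.1% of the control mean. On the log2 scale the difference was -1.51 (standard error 0.31). Without Villin-WlscKO tumors 2 and 3, the log2 changes were -1.27 for Wnt6, -2.05 for Wnt10a and -1.39 for Ihh.

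The other 5 genes had means in Villin-WlscKO tumors between 96.4% (Cnppd1) and 115% (Stk36) of those in control tumors. Cnppd1 ranged from 37.7 to 48.8 FPKM in control and from 38.2 to 44.5 FPKM in Villin-WlscKO tumors, and its log2 difference was -0.048 (standard error 0.077). Rnf25 ranged from 18.2 to 28.1 FPKM and from 21.4 to 26.8 FPKM, with a change of 0.033 (standard error 0.11). These 2 genes are expressed well above the table's median, and their standard errors are the smallest of the 8. Ttll4 averaged 17.5 ± 3.35 FPKM and 17.3 ± 3.39 FPKM (SD, n = 5 each), with a change of -0.013 (standard error 0.15). Nhej1, the gene directly beside Ihh, ranged from 3.33 to 5.09 FPKM and from 3.42 to 4.86 FPKM, with a change of -0.0046 (standard error 0.12). Stk36 was near the lower limit of the test, at 0.346 to 1.78 FPKM and 0.785 to 1.55 FPKM, with a change of 0.14 (standard error 0.19). Each of these 5 small changes took the other sign when at least 1 of the tumors was left out on its own. Rescaling the tumors turned the sign for Nhej1, Cnppd1, Rnf25 and Ttll4, but relative to the median of all genes under the same scaling their signs did not turn.

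**Figure D1:**
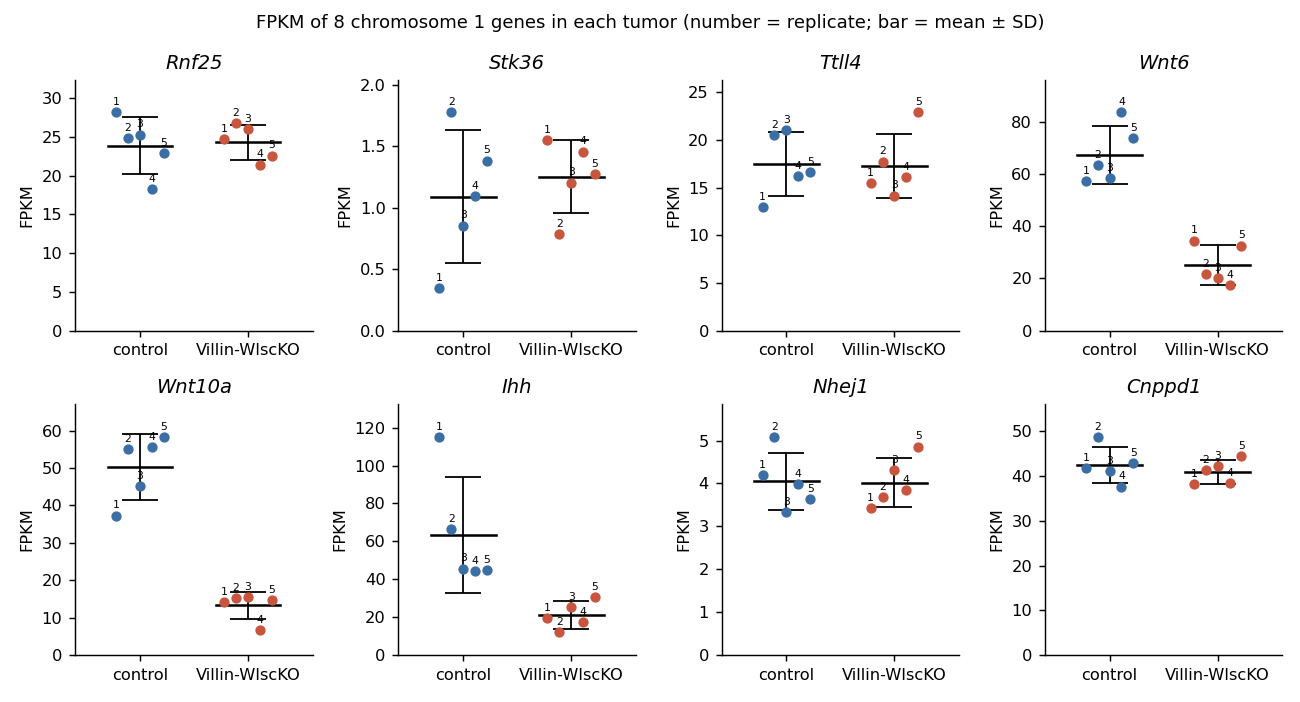
FPKM (y axis, from 0) of the 8 genes in their order along chromosome 1, for 5 control (blue) and 5 Villin-WlscKO tumors (red), with the replicate number at each point and bars for mean ± SD. Wnt6, Wnt10a and Ihh show separate groups, with control means of 67.2, 50.3 and 63.2 FPKM against 25.3, 13.2 and 20.9 FPKM, while the groups of the other 5 overlap.

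The order of levels along the stretch shifted with the ligands. In control tumors, mean FPKM descended from Wnt6 through Ihh, Wnt10a, Cnppd1, Rnf25, Ttll4 and Nhej1 to Stk36. Neighbors among the first 4 overlapped: Wnt6 exceeded Ihh in 3 of 5 control tumors, Ihh exceeded Wnt10a in 3 of 5, and Wnt10a exceeded Cnppd1 in 4 of 5. Rnf25 and Ttll4 overlapped in range, although Rnf25 was higher within each of the 5 control tumors. In Villin-WlscKO tumors Cnppd1 came first and exceeded Wnt6 in 5 of 5, without overlap. Wnt6, Rnf25, Ihh, Ttll4 and Wnt10a followed with overlapping neighbors, and Wnt6 was above Rnf25 in only 2 of 5 tumors. Nhej1 and Stk36 were last in both genotypes, and neither overlapped the gene before it.

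Ratios taken within a tumor do not depend on how tumors are scaled to each other. Wnt6 was 2.77 to 5.16 times as high as Ttll4 in control tumors and 1.09 to 2.22 times as high in Villin-WlscKO tumors. Against Cnppd1, Wnt6 stood at 1.30 to 2.22 in controls and at 0.456 to 0.902 in deleted tumors. Every control tumor thus had more Wnt6 than Cnppd1, and every deleted tumor had less. The ratio of Wnt10a to Ttll4 was 2.15 to 3.51 and 0.415 to 1.09, and that of Ihh to Cnppd1 was 1.04 to 2.76 and 0.287 to 0.688. None of these ratios overlapped between genotypes. The ligands were already known to be separate and Ttll4 and Cnppd1 to be nearly level, so that this is a description and no further evidence.

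Between the 2 neighboring Wnt genes, the ratio was less distinct. Wnt10a was at 0.652 to 0.866 of Wnt6 in control tumors and at 0.413, 0.701, 0.766, 0.383 and 0.452 in Villin-WlscKO tumors 1 to 5. Tumors 2 and 3, which carried the squamous markers, were inside the control range, and tumors 1, 4 and 5 were below it. Whether squamous cells had a part in this was not tested. Ihh to Wnt6 overlapped widely, from 0.530 to 2.01 in control and from 0.549 to 1.26 in deleted tumors.

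Vil1, which encodes the actin-bundling villin of epithelial microvilli and is the gene whose promoter was borrowed for the Cre, lies on the same chromosome, and 336332 bases separate its end from the start of Wnt6. Its own level averaged 125 ± 25.2 FPKM in control and 175 ± 31.0 FPKM in deleted tumors (SD, n = 5 each). The log2 difference of 0.49 missed the threshold in limma (adjusted p = 0.083), but passed it without control tumor 1 (adjusted p = 0.0497) and without Villin-WlscKO tumor 2 (adjusted p = 0.0434), and also with each tumor scaled to 1 FPKM sum (adjusted p = 0.0183). Relative to Vil1 as an epithelial gene of the same tumor, Ihh was at 0.328 to 0.727 in control and 0.0897 to 0.147 in deleted tumors. Wnt6 was at 0.361 to 0.893 and 0.105 to 0.184, and Wnt10a at 0.235 to 0.595 and 0.0435 to 0.114. Per unit of this epithelial transcript, the genotypes did not overlap for any of the 3 ligand genes. The ligands were separate before the division and mean Vil1 was higher in deleted tumors, so that these ratios are no separate evidence.

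**Figure D2:**
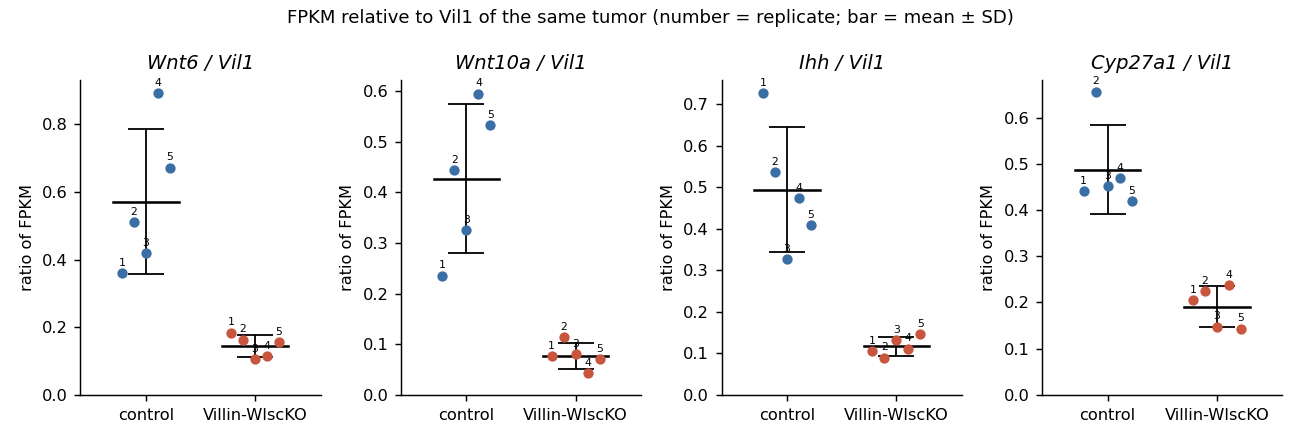
Ratio of FPKM to Vil1 in the same tumor (y axis, from 0, no unit) for Wnt6, Wnt10a, Ihh and Cyp27a1, in control (blue) and Villin-WlscKO tumors (red), with replicate numbers and mean ± SD. In each of the 4 panels all 5 deleted tumors lie below all 5 control tumors, and the Ihh ratio tops out at 0.147 in deleted tumors against a control minimum of 0.328.

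The neighborhood was then taken from the annotation, as every gene whose body overlaps the stretch from 500 kb before to 500 kb after Wnt6 (chromosome 1, 74271892 to 75285322). It holds 57 annotated genes, of which 37 were matched to the table, 2 of them by an older symbol. Leaving out the 8 genes, 29 were tested, with 25 distinct sets of values, since some names share all values with an overlapping gene. Only 1 of the 29 was called lower, Cyp27a1, and 1 was called higher, Tuba4a, beside 4.75% and 6.12% of all genes. Changes of 25 of the 29 lay within 0.5 on the log2 scale of 0, their median was 0.058 against 0.0073 over all genes, and 8 of them (27.6%, in 5 distinct sets of values) had an unadjusted p under 0.05, beside 25.7% of all genes. Without Villin-WlscKO tumors 2 and 3, Tuba4a was the 1 gene called (adjusted p = 0.0452).

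Cyp27a1, which encodes the mitochondrial sterol 27-hydroxylase of bile acid synthesis, lies on the plus strand between Ttll4 and Wnt6, from 74713574 to 74737892. It was at 69.8, 81.4, 62.7, 43.8 and 46.0 FPKM in control tumors and at 38.2, 29.6, 28.4, 36.5 and 29.9 FPKM in Villin-WlscKO tumors. All deleted tumors were below all control tumors, although control 4 and deleted tumor 1 were close. The mean was 60.8 ± 16.0 FPKM in controls and 32.5 ± 4.48 FPKM in deleted tumors (SD, n = 5 each), and limma gave a log2 difference of -0.85 with an adjusted p of 0.0113 (standard error 0.17). This change was smaller than that of any of the 3 ligand genes, a difference that was not tested. The adjusted p was 0.0739, with a change of -0.75, when Villin-WlscKO tumors 2 and 3 were left out. Relative to Ttll4, on its other side by 9843 bases, Cyp27a1 was at 2.71 to 5.38 in control and 1.31 to 2.47 in deleted tumors, without overlap.

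Along the chromosome, the protein-coding genes analysed here that were lower without overlap stood next to each other as Cyp27a1, Wnt6, Wnt10a and Ihh. Ttll4 on one side and Nhej1 on the other had overlapping groups. The 3 ligand genes were chosen with the contrast known, and Cyp27a1 was 1 of 29 called lower, beside 4.75% of all genes. As a run they are a description and carry no test. This run is not unbroken: 5 more coding genes are annotated between the outer members, Prkag3 between Cyp27a1 and Wnt6 and Cdk5r2, Fev, Cryba2 and Cfap65 between Wnt10a and Ihh, and were not analysed here. Gm29539, an antisense transcript inside Wnt6 (74774943 to 74777405, minus strand), was at 0.807 ± 0.157 FPKM in control and 0.495 ± 0.328 FPKM in deleted tumors (SD, n = 5 each), with a change of -0.29 (limma adjusted p = 0.258). The libraries were stranded, but whether the counting used strand is not given in the sources used here, so that reads of Gm29539 and Wnt6 may not be told apart. Slc23a3, an orphan member of the ascorbate transporter family that lies between Nhej1 and Cnppd1, was at 2.00 ± 0.678 FPKM and 2.94 ± 0.731 FPKM (SD, n = 5 each), with a change of 0.40 (adjusted p = 0.203).

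**Figure D3:**
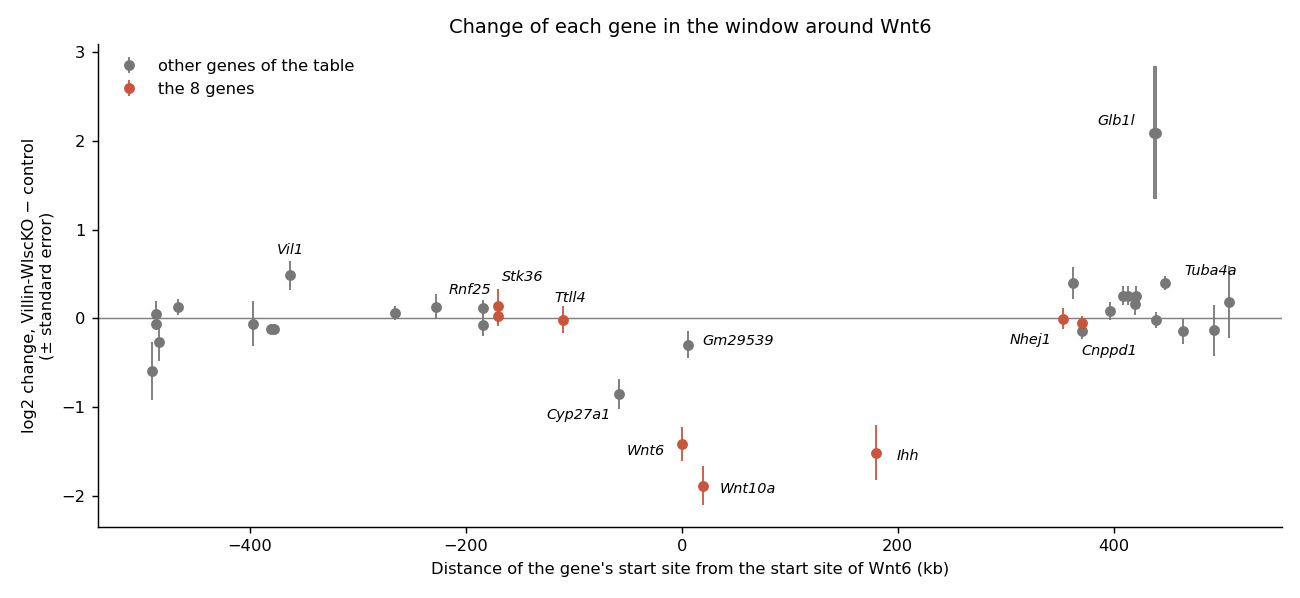
log2 change between genotypes with its standard error (y axis) against the distance of each gene's start from the start of Wnt6 in kb (x axis), for the 8 genes (red) and the 29 others of the window (grey). Cyp27a1, Wnt6, Wnt10a and Ihh lie between -0.85 and -1.88, most other points lie near 0, and Glb1l at 2.09 has a wide error.

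On the far side of Cnppd1, Tuba4a, an alpha-tubulin gene, was at 174, 213, 219, 184 and 204 FPKM in control and at 263, 293, 247, 260 and 249 FPKM in Villin-WlscKO tumors. It rose by 0.40 on the log2 scale without overlap (standard error 0.080, limma adjusted p = 0.010), but the call was lost with quantile normalization (change 0.27, adjusted p = 0.0568). Glb1l, a relative of beta-galactosidase, had the largest change in the window, 2.09, with a standard error of 0.75 and an adjusted p of 0.106. It was at 24.0, 95.6, 15.2, 79.2 and 3.04 FPKM in deleted tumors and at 3.04 to 7.84 FPKM in controls, and shares all values with the overlapping Gm27943. Without Villin-WlscKO tumor 5, Glb1l and Gm27943 were called higher as well (adjusted p = 0.0116), and the count in the window was 4 in place of 2.

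Of 19 mouse Wnt genes, 11 were analysed, and in control tumors Wnt6 and Wnt10a made up most of their summed level. The FPKM of the 11 summed to between 120 and 170 in control and between 47.2 and 73.8 in Villin-WlscKO tumors. Wnt6 and Wnt10a together were 78.7% to 84.6% of that sum in controls. In Villin-WlscKO tumors 1 to 5 they were 72.8%, 54.5%, 48.3%, 51.3% and 82.2%, so that only tumor 5 was inside the control range. The summed FPKM of the other 9 overlapped, at 22.1 to 31.0 in controls and 10.2 to 38.2 in deleted tumors. Wnt10a's own share did not overlap, at 31.0% to 39.1% and 14.2% to 25.6%, whereas that of Wnt6 did, at 44.9% to 49.1% and 27.4% to 56.7%.

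**Figure D4:**
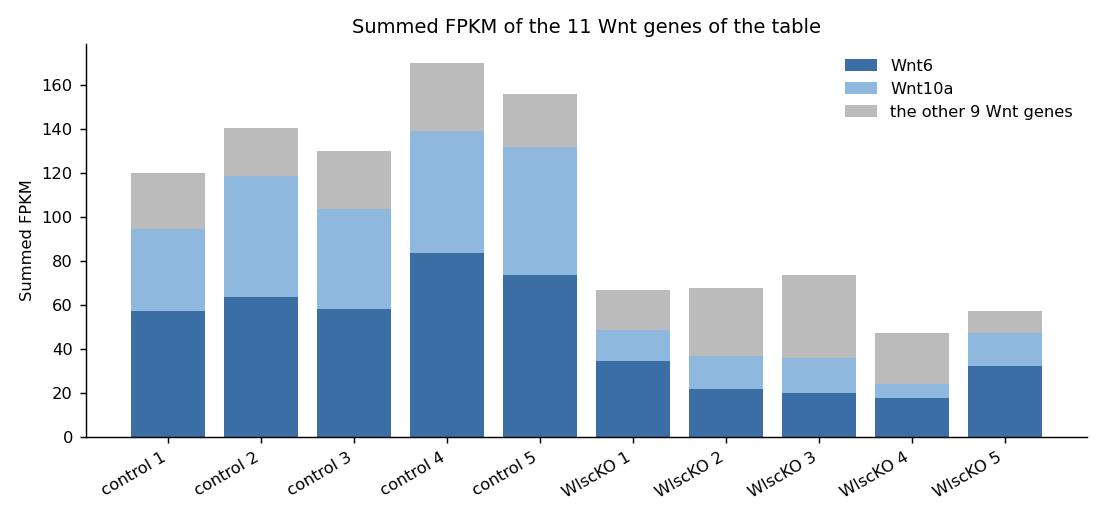
Summed FPKM (y axis, from 0) of the 11 Wnt genes in each of the 10 tumors (WlscKO stands for Villin-WlscKO), split into Wnt6, Wnt10a and the other 9. The bars reach 120 to 170 FPKM in control and 47.2 to 73.8 FPKM in Villin-WlscKO tumors, and the grey part for the other 9 covers 10.2 to 38.2 FPKM in the latter.

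Among the 9 other Wnt genes tested, Wnt5b and Wnt7a were called lower and 0 were called higher, beside 4.75% and 6.12% of all genes. The median change of the 9 was -0.029 against 0.0073 over all genes. Wnt7a, a ligand of epithelia, went from 3.69 ± 1.25 to 0.465 ± 0.615 FPKM (SD, n = 5 each), with a log2 difference of -1.71 (limma adjusted p = 0.00388, standard error 0.28). Wnt5b, mostly known for noncanonical signaling, went from 4.57 ± 1.01 to 2.25 ± 0.719 FPKM (SD, n = 5 each), a difference of -0.79 (adjusted p = 0.0195, standard error 0.18). Its adjusted p was 0.0501 without Villin-WlscKO tumors 2 and 3, where the change was -0.89. Wnt5a, the most abundant of the 9, was at 9.52 ± 4.11 and 9.27 ± 3.62 FPKM (SD, n = 5 each). Of 12 genes known to respond to canonical Wnt signaling, 6 were called lower and 0 higher, beside the same 4.75% and 6.12% of all genes. The 6 were Axin2, Notum, Tcf7, Znrf3, Sp5 and Apcdd1, and 6 were again called lower without tumors 2 and 3. The median change of the 12 was -0.70, with 10 changes below 0 and 2 above. Those above were Lgr5 at 0.71 and Myc at 0.063 (limma adjusted p = 0.239 and 0.773). Lef1 overlapped between the groups, with a change of -0.51 (limma adjusted p = 0.309).

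On the Hedgehog side, Ihh was above Shh in every tumor, and Dhh was not analysed here. Shh was at 2.70, 25.5, 1.61, 4.54 and 22.4 FPKM in control and at 1.19, 2.28, 0.722, 1.13 and 0.852 FPKM in Villin-WlscKO tumors. Controls 2 and 5 were far above the rest, and the groups overlapped. The change of -1.88 (standard error 0.62) missed the threshold in limma (adjusted p = 0.0842), but passed it without control tumor 3 (adjusted p = 0.0326). Hhat and Disp1, which acylate and release Hedgehog ligands, had changes of -0.29 and -0.25 (adjusted p = 0.297 and 0.287).

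Of 8 genes of Hedgehog reception and response, 2 were called lower and 0 higher, beside 4.75% and 6.12% of all genes. Their median change was -0.33, against 0.0073 over all genes. The same number were called without Villin-WlscKO tumors 2 and 3, and 1 was called with a replicate block. Ptch1, the receptor and a target of the signal, was at 17.5, 9.90, 11.8, 11.6 and 11.8 FPKM in control and at 6.29, 8.61, 7.96, 6.37 and 7.74 FPKM in Villin-WlscKO tumors. The groups did not overlap, and the change was -0.67 (standard error 0.14, limma adjusted p = 0.0149). With a replicate block, the adjusted p of Ptch1 was 0.0580. Gas1, a cell surface protein that helps Patched bind its ligand, was at 6.53 to 13.9 FPKM and at 0.272 to 3.31 FPKM, a change of -1.56 (standard error 0.34, adjusted p = 0.0165). Hhip, a decoy for the ligand, averaged 0.801 ± 0.397 FPKM and 0.272 ± 0.234 FPKM (SD, n = 5 each), and its change of -0.50 did not pass (adjusted p = 0.0947). Smo, the Smoothened signal transducer, was at 14.7 ± 3.89 and 14.5 ± 1.98 FPKM (SD, n = 5 each). Gli1, Gli2 and Gli3 were not analysed here. The mature colonocyte is the cell type that makes most Ihh in healthy colon. Of 9 of its genes, 0 were called lower and 1, Krt20, was called higher (change 0.91, standard error 0.20, limma adjusted p = 0.0156). The median change was 0.77, with 8 changes above 0 and 1 below. The 1 below was Slc9a3, with a change of -0.96 (adjusted p = 0.0883).

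Variation inside the groups was examined apart from the difference between them, by removing each group's mean from log2(FPKM + 1) and correlating the remainder over the 10 tumors. These correlations are descriptions with no p, since the tumors share scaling and composition and 16756 other genes were screened. Wnt6 and Wnt10a had r = 0.59 but a Spearman rho of 0.27, and r was 0.30 without Villin-WlscKO tumor 4, which was lowest for both genes. Ihh had r = 0.010 to Wnt6, which combined -0.62 within control and 0.42 within Villin-WlscKO tumors, and r = -0.16 to Wnt10a, which combined -0.75 and 0.22. Each of these rests on 5 tumors. Ihh went with Vil1 (r = 0.83, rho = 0.85, and r = 0.70 without control tumor 1 and Villin-WlscKO tumor 5, the farthest from the median of Ihh), which ranked 102 among all genes. With its neighbor Nhej1 it had r = 0.62 and rho = 0.59.

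**Figure D5:**
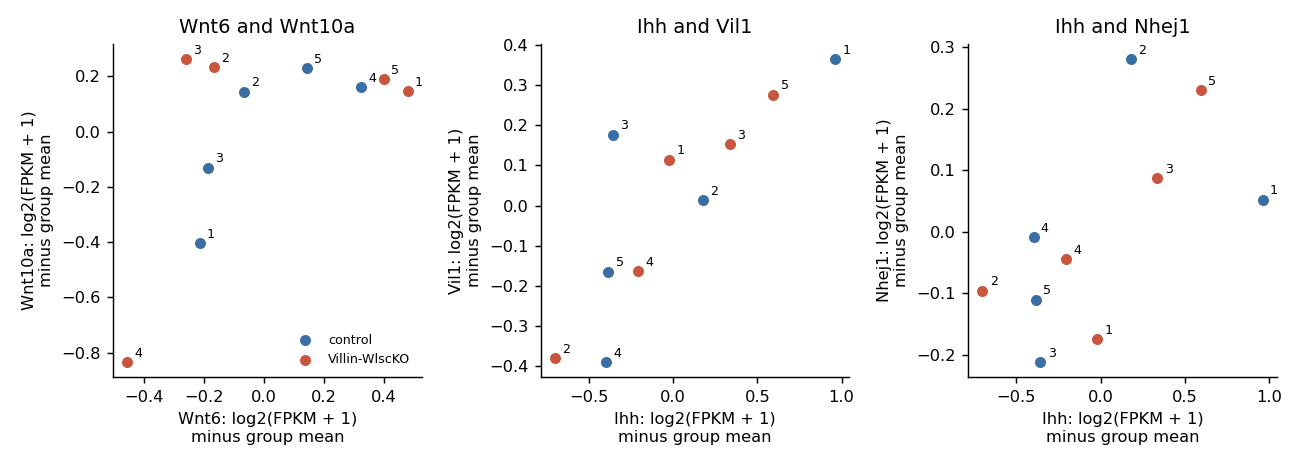
log2(FPKM + 1) minus the group mean for 3 pairs of genes, with control tumors in blue, Villin-WlscKO tumors in red and replicate numbers at the points. Deleted tumor 4 lies alone at the lower left for Wnt6 and Wnt10a (r = 0.59), while Ihh and Vil1 rise together over the range (r = 0.83).

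None of the genes most like each ligand inside the groups was placed on chromosome 1. For Ihh the leading names were Igbp1 (r = 0.96), Plbd1 (r = 0.95), Cdx2 (r = 0.94), a homeobox factor of intestinal identity, and Ddi2 and Rsc1a1, which share all values (r = 0.93). Control tumor 1 and Villin-WlscKO tumor 5 were high for both Ihh and Cdx2, and r was 0.82 without them. Cdx2 itself was at 5.33 to 18.2 FPKM in control and 8.25 to 20.0 FPKM in Villin-WlscKO tumors, a change of 0.75 that missed the threshold in limma (adjusted p = 0.181). For Wnt10a the leading names were Lrrc46 (r = 0.95), Podn (r = 0.95), Irx5 (r = 0.94), RP23-253G12.10 (r = 0.93), whose position was not matched, and Hoxd12 (r = 0.92). Their rho of 0.67 to 0.87 was lower than their r. Villin-WlscKO tumor 4 lay farthest from its group mean for Wnt10a (-0.83, with control tumor 1 next at -0.40). These r were not taken without it. For Wnt6 they included Gm11658 (r = 0.92), Gm26549, Mfap3 and Kif3a (each r = 0.91), and all of these but Gm26549, which is on chromosome 17, lie on chromosome 11.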

How the data were processed

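Messenger RNA of 10 AOM/DSS colon tumors had been sequenced from stranded libraries. Per the submitters' processing notes, the authors used FastQC, TopHat2 2.1.1, Cufflinks 2.2.1, Cuffdiff and GRCm38.p5, and they deposited FPKM, 1 value per gene name and tumor. The annotation release and the use of strand in counting are not given in the sources used here. Every column of the table was matched to a tumor by its label, and 0 columns were left unmatched. No steps of whole reads were found among 998 low genes, in which at most 3 shared a ratio, so that precision rests on the spread between tumors.

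Genotypes were compared on the scale log2(FPKM + 1) by limma 3.58.1 (R 4.3.3), with a variance trend, for 16757 genes whose mean FPKM reached 0.5. P-values are two-sided and Benjamini-Hochberg adjusted, and the threshold was 0.05. All 8 genes passed the filter. Fold changes on this scale understate those of low genes. The method was tested on simulated data. Summaries used Python 3.11.15, numpy 2.4.6, pandas 2.3.3 and matplotlib 3.10.9. Positions came from GENCODE M21 (16056 names matched by symbol and 453 by an older one) and promoters from RefSeq. Names that share all values with another (2419) cannot be told apart, and none of the 8 genes is among them. The members, the gene lists and the alternatives were chosen with earlier results of these data known. Named were the 8 genes, Wls, window genes past the threshold or between members, Wnt and Hedgehog genes past the threshold with up to 4 others a list, and the 5 genes most correlated with each ligand, of which 1 is not reported here. Vil1, Glb1l, Krt20, Slc9a3, Lgr5, Myc and Lef1 were added after their values were seen. Alternatives were another pseudocount, 3 scalings, other filters, eBayes settings, windows and ratios, a replicate block, identical names counted once, and tumors left out.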

Additional observations from a re-analysis of the deposited data

Results flagged for a closer look

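Wnt10a in Villin-WlscKO tumor 4 lay far from the rest of its group. It was at 6.70 FPKM and the other 4 Villin-WlscKO tumors were at 14.2 to 15.5 FPKM, and its gap to the nearest was 0.855 of the range of the group, above Dixon's 95% critical value for 5 samples. Of 28 groups examined (14 genes in 2 genotypes), this was the 1 that exceeded it, and chance alone gives about 1 in 20. Without this tumor the log2 change of Wnt10a was -1.67, against -1.88 with it.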

How the results depend on the processing

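The log2 changes of the 8 genes moved by less than 1 SD of the tumors within a group under every alternative that gave a value, and the changes of Wnt6 (-1.55 to -1.27), Wnt10a (-2.05 to -1.67) and Ihh (-1.66 to -1.22) stayed negative throughout. The other 5 lay between -0.11 and 0.30, and Nhej1 and Stk36 had no value at a mean FPKM of at least 5. Cyp27a1 passed the threshold in 20 of 21 alternatives (adjusted p 0.0077 to 0.0739) and Tuba4a also in 20 of 21 (0.0090 to 0.0568), and Wls passed in all 21. Without Villin-WlscKO tumors 2 and 3, 1092 genes were called (438 lower, 654 higher) in place of 1822 (796 lower, 1026 higher), with 1 in the window and 1 among the other Wnt genes. With an FPKM sum of 1000000, 412 were lower and 1385 higher, and with quantile normalization 1126 were lower and 894 higher, with 1 called in the window, Cyp27a1. The 250 kb window also held 1, Cyp27a1, and a mean FPKM of at least 5 left 0 of the other Wnt genes called, since Wnt5b and Wnt7a are then not tested. Leaving out 1 tumor at a time gave 507 (without control tumor 2) to 806 genes lower, 2 to 4 in the window, 0 to 1 among Hedgehog ligands and processing, and 1 to 2 among colonocyte genes (2 without control tumor 1 or 3). The Spearman correlation of Wnt6 with Wnt10a was 0.273, against a Pearson r of 0.59. Deviations of same-numbered tumors of the 2 genotypes had correlations of -0.087 to 0.16, over 0.1 in 2 of 5 pairs. Of the 10 tumors, 5 correlated best with their own number in the other genotype. These values do not settle whether the numbers pair the tumors, and the labels do not say. With a replicate block, 1627 genes were called, and 1 gene of Hedgehog reception in place of 2. Ptch1 then had a limma adjusted p of 0.0580. Depth is unknown, and 5 tumors a group limit what small changes could be seen.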
